A study of Mus musculus with 6 samples.

Results

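The actin-based motor non-muscle myosin II is described here through 10 of the 20458 gene names measured in sorted follicular B cells. The 10 genes were chosen by name, for their role in the motor, with earlier results of these data known. They are the 3 non-muscle heavy chains Myh9, Myh10 and Myh14, the light chains Myl6, Myl12a and Myl12b, the kinases Rock1 and Rock2, and the myosin phosphatase subunits Ppp1r12a and Ppp1cb. Follicular B cells were gated as B220+, AA4.1-, CD23+ and CD21lo and came from C57BL/6 mice that all carried the CD23Cre transgene and at least 1 floxed Myh9 allele. The comparison group, CD23Cre+Myh9fl/wt (3 samples, called wt/fl here), has 1 floxed and 1 wild-type allele, so it is haploinsufficient and not wild-type, and CD23Cre+Myh9fl/fl (3 samples) has both alleles floxed. Cre is driven by the promoter of the CD23 gene Fcer2a, which B cells use late in their maturation, and deletion in other cells was not measured here. The methods give an age range and both sexes for mice used ex vivo as a whole, without a separate statement for the sequenced samples.

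RNA-seq values were available as 1 pooled FPKM value (fragments counted on a gene, divided by the length of its transcript and by the size of the library) for each genotype, which stands for all 3 of its samples. Each value below is such a pooled value, without an SD, and no test between the genotypes could be made. A difference was read against all other genes instead. The 9866 genes whose mean over both genotypes reached 1 FPKM were compared, and a gene was counted as past the fold when the log2 ratio of fl/fl over wt/fl, with 1 added to each FPKM, was at least 0.5 in either direction (1.41-fold). In bulk RNA, fewer cells of a type and less RNA per cell cannot be told apart.

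Non-muscle myosin II is a hexamer of a pair of heavy chains, a pair of essential light chains and a pair of regulatory light chains. Myh9 encodes the heavy chain of myosin IIa, Myh10 that of IIb and Myh14 that of IIc. Myl6 encodes the essential light chain, and Myl12a and Myl12b encode regulatory light chains, whose phosphorylation allows the motor to form filaments and to pull on actin. The kinases ROCK1 and ROCK2 phosphorylate the regulatory light chain and also act on the phosphatase that reverses this step, in which Ppp1r12a encodes the targeting subunit and Ppp1cb the catalytic subunit. In lymphocytes, myosin II is known for its part in cortical tension, crawling, the immune synapse and the separation of daughter cells.

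The sequence removed by Cre is shown first, because it sets what a Myh9 value can report. Exon 3, the floxed exon, lies at chr15:77807868-77808024 on the minus strand of GRCm38 and consists of coding bases only. It is printed in capitals, between the last 20 bases of exon 2 and the first 20 bases of exon 4 as they stand in the mRNA (GENCODE M21).
Myh9 exon 3: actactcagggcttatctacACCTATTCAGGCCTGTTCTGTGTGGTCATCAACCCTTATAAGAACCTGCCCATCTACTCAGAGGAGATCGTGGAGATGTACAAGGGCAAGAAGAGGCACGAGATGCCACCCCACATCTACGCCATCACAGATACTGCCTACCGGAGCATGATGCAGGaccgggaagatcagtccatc

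The 157 bases of exon 3 make up 2.11% of the 7433 bases of the 41-exon mRNA, and they reach from residue 112 to residue 164 of the 1960 residues of the heavy chain. The ATP-binding P-loop of the motor, at residues 174 to 181, is encoded by exon 5, behind the removed part. Since 157 divided by 3 leaves a remainder of 1, joining exon 2 to exon 4 shifts the reading frame. In the joined sequence the first stop codon stood in exon 6, after 165 codons, of which 111 belonged to the normal frame and 54 followed the junction. The other 97.9% of the mRNA still adds fragments to the FPKM of Myh9 when exon 3 is absent, so the level of Myh9 below is that of all Myh9 transcripts, with and without exon 3.

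**Figure D1:**
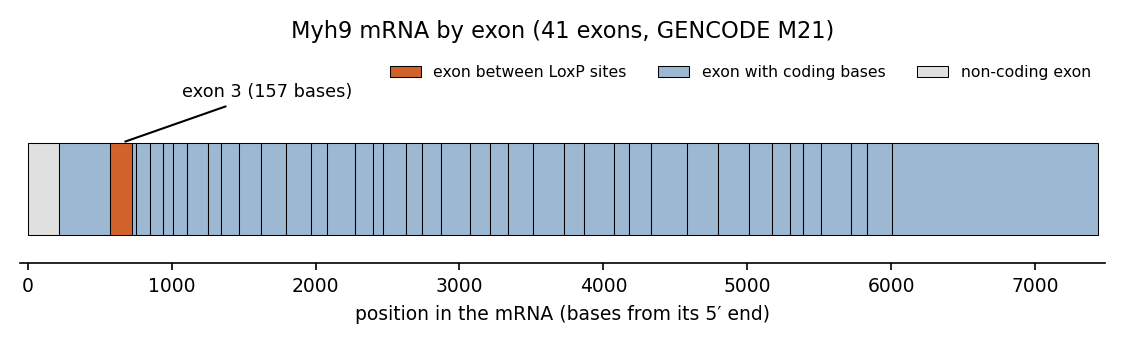
Map of the Myh9 mRNA, drawn to scale along its 7433 bases from the 5′ end, with each of the 41 exons as a box. Exon 3 (orange, 157 bases) is the exon between the LoxP sites, coding exons are blue and the non-coding first exon is grey.

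Of the 3 heavy chains, only Myh9 was expressed at a level that could be compared, and its mRNA was lower in the fl/fl cells. Myh9 (chromosome 15, 77591018 to 77672545, mm9) measured 50.6 FPKM in wt/fl against 21.1 FPKM in fl/fl cells, so that 41.7% of the haploinsufficient level was left, a log2 ratio of −1.22. Its level was above that of 85.3% of the compared genes in wt/fl cells and above that of 63.6% in fl/fl cells. Myh9 was 1 of the 215 genes lower past the fold, which make up 2.18% of the genes compared (1.27% were higher past it), and 26 of the 9866 genes had a more negative log2 ratio.

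Neither of the other non-muscle heavy chains reached 1 FPKM in either genotype. Myh10 (chromosome 11, 68505416 to 68630126, mm9), whose protein is 77.8% identical to that of Myh9 over the aligned residues, was at 0.297 FPKM in wt/fl against 0.262 FPKM in fl/fl cells. Myh14 (chromosome 7, 51861172 to 51926213, mm9), 64.4% identical to Myh9, was summed over 3 entries, each a group of transcripts with 1 coding sequence, to 0.0318 FPKM in wt/fl against 0.0129 FPKM in fl/fl cells. All entries of both genes carry the status word for too few fragments to compare, and their log2 ratios of −0.04 and −0.03 were not counted. Myh9 exceeded Myh10 by 170-fold in wt/fl and by 80.7-fold in fl/fl cells on the FPKM scale, and it made up 99.4% and 98.7% of the summed FPKM of the 3 genes.

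The muscle and smooth muscle heavy chains of class II were nearly absent as well. None of the 10 listed genes reached 1 FPKM in either genotype, and the highest value was 0.122 FPKM, for Myh7b in wt/fl cells. Smooth muscle Myh11 was at 0.0803 FPKM in wt/fl against 0.104 FPKM in fl/fl cells. Over all 13 class II heavy chains Myh9 accounted for 98.9% of the FPKM with 1 floxed allele and for 97.9% with both floxed, while the other 12 genes together were at 0.564 and 0.448 FPKM. The sum over the class was 51.2 FPKM in wt/fl against 21.6 FPKM in fl/fl cells.

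**Figure D2:**
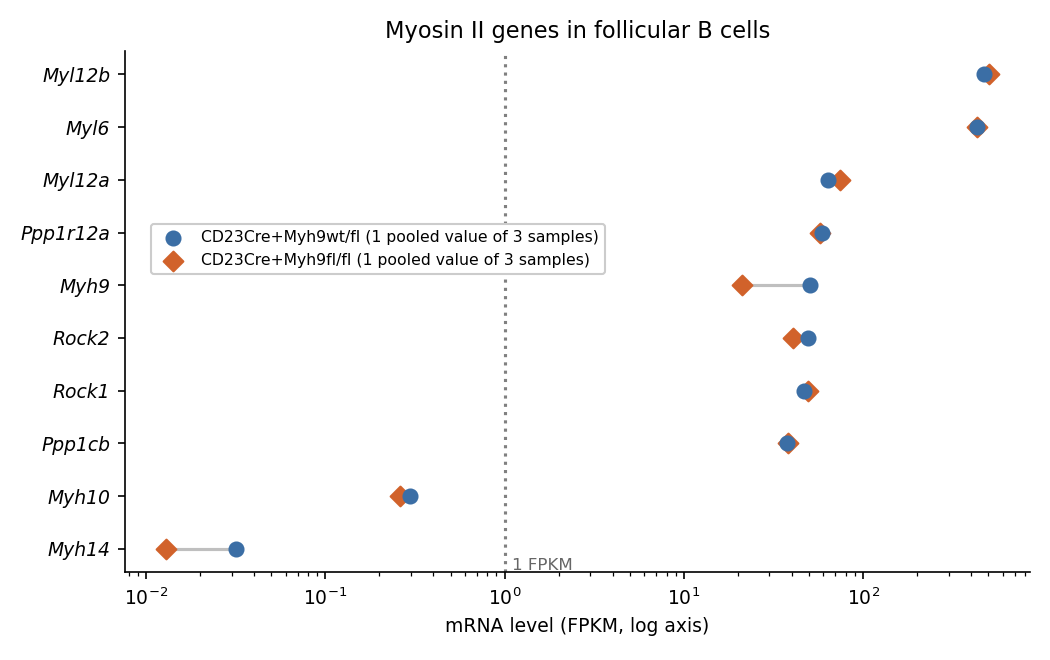
mRNA level of the 10 genes in FPKM on a log axis, with 1 point per genotype, each the pooled value of 3 samples (blue circles wt/fl, orange diamonds fl/fl). Among the 8 genes above the dotted line at 1 FPKM, only Myh9 shows clearly separate points, at 50.6 and 21.1 FPKM.

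The light chains were the most abundant of the 10 mRNAs, and their levels were close between the genotypes. Myl6 (chromosome 10, 127927916 to 127930881, mm9), the essential light chain, was at 429 FPKM in wt/fl against 433 FPKM in fl/fl cells, a log2 ratio of 0.01. Myl12b (chromosome 17, 71323302 to 71339856, mm9) measured 470 FPKM in wt/fl against 501 FPKM in fl/fl cells, a log2 ratio of 0.09. These values place Myl6 above 98.5% and Myl12b above 98.6% of the compared genes in wt/fl cells. Myl12a, its neighbour (chromosome 17, 71343132 to 71351873, mm9), measured 63.4 FPKM in wt/fl against 74.2 FPKM in fl/fl cells, a log2 ratio of 0.22 and the highest among the 8 compared genes of the motor. That ratio did not pass the fold, and 8878 of the 9866 compared genes had a lower one.

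The regulatory light chain genes are shown by the first 90 bases of their coding sequences, because their similarity limits how well fragments can be assigned. The capitals mark codons 19 and 20, counted from the start codon, which encode the threonine and serine phosphorylated by ROCK and by myosin light chain kinase. The stretches lie at chr17:70996791-70996880 (Myl12a) and chr17:70977142-70977231 (Myl12b) on the minus strand of GRCm38.
Myl12a: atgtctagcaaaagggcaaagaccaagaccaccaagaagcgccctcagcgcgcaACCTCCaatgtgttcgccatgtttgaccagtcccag
Myl12b: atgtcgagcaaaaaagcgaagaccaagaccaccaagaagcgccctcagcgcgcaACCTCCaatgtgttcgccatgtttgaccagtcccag

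These stretches differ at 4 of 90 bases, and the phosphorylated codons are the same. Over the whole coding sequence 498 of 516 bases were identical (96.5%), and the proteins differ at 4 of 172 residues. The parts outside the coding sequence are less alike, so that only 10.2% of the 50-base stretches of the Myl12a mRNA also occur in Myl12b and 9.17% of those of Myl12b occur in Myl12a. Of the summed regulatory light chain FPKM, Myl12b made up 88.1% in wt/fl against 87.1% in fl/fl cells. The split between the pair can depend on how the software shared out fragments from the coding sequence, whereas their sum, 534 FPKM in wt/fl against 575 FPKM in fl/fl cells, depends on it less. Myl6 is the least certain of the light chains in this respect, since 53.2% of the 50-base stretches of its mRNA also occur in 5 other annotated genes.

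With the heavy chain mRNA lower and the light chain mRNAs near their wt/fl levels, the balance of the subunit mRNAs differed between the genotypes. The ratio of Myl6 to Myh9 FPKM was 8.47 in wt/fl and 20.5 in fl/fl cells. The ratio of the summed regulatory light chains to Myh9 was 10.5 in wt/fl and 27.2 in fl/fl cells. The regulatory and essential light chains stayed closer to each other, at a ratio of 1.24 in wt/fl against 1.33 in fl/fl cells. All 3 light chains together were at 963 FPKM in wt/fl against 1008 FPKM in fl/fl cells.

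**Figure D3:**
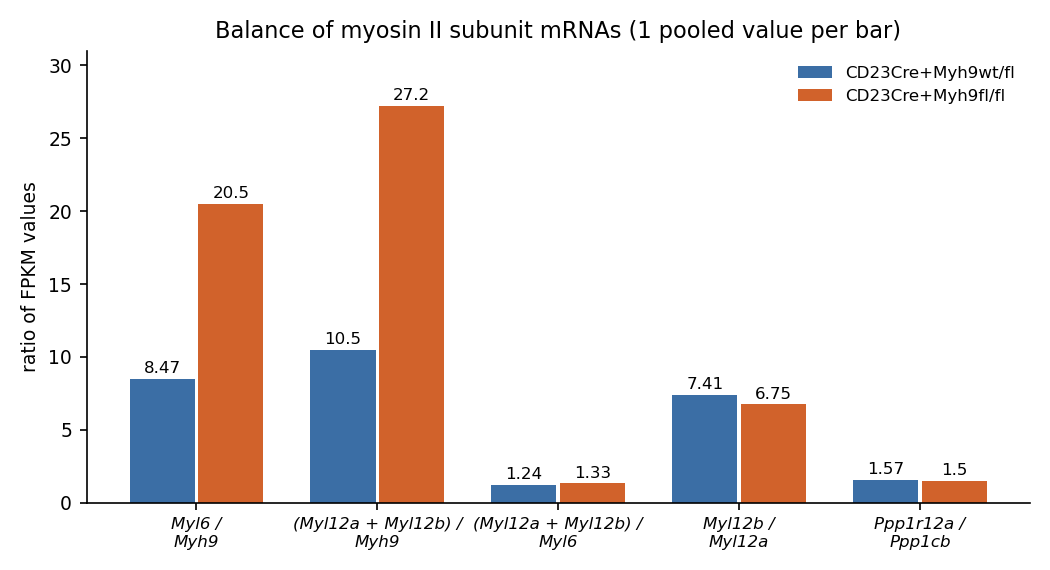
Ratios of FPKM values between genes of the motor in wt/fl (blue) and fl/fl (orange) cells, from 1 pooled value per genotype and gene. Both ratios of light chains to Myh9 are higher in fl/fl cells (8.47 and 20.5, 10.5 and 27.2), while the ratios that leave Myh9 out are close (for example 7.41 and 6.75 for Myl12b to Myl12a).

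The kinases that switch the motor on were expressed at about equal levels. Rock1 (chromosome 18, 10064398 to 10181790, mm9) measured 46.8 FPKM in wt/fl against 49.1 FPKM in fl/fl cells, a log2 ratio of 0.07. Rock2 (chromosome 12, 16901783 to 16995080, mm9), whose protein is 66.4% identical to ROCK1, was at 49.2 FPKM in wt/fl against 40.6 FPKM in fl/fl cells, or 82.6% of the wt/fl level. Its log2 ratio of −0.27 was the second most negative of the motor genes and did not pass the fold. Of the compared genes 8.07% had a lower ratio, and of those with a mean of at least 20 FPKM 3.72% had. Their sum was 96.0 FPKM in wt/fl against 89.7 FPKM in fl/fl cells, of which Rock1 made up 48.8% and 54.7%.

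The subunits of myosin phosphatase were nearly level between the genotypes. Ppp1r12a (chromosome 10, 107599455 to 107714631, mm9) measured 59.1 FPKM in wt/fl against 57.2 FPKM in fl/fl cells, a log2 ratio of −0.05. Ppp1cb (chromosome 5, 32761342 to 32796085, mm9) measured 37.5 FPKM in wt/fl against 38.2 FPKM in fl/fl cells, a log2 ratio of 0.02. Among the 3 related targeting subunit genes Ppp1r12a held the largest share, 71.5% in wt/fl against 72.5% in fl/fl cells. Ppp1cb, in contrast, was a minor catalytic subunit mRNA, at 10.8% of the sum over the 3 PP1 catalytic genes in wt/fl against 10.7% in fl/fl cells.

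Ordered by FPKM, the genes ran from Myl12b, Myl6 and Myl12a through Ppp1r12a, Myh9, Rock2, Rock1 and Ppp1cb to Myh10 and Myh14 in wt/fl cells. In fl/fl cells Myh9 stood behind Ppp1cb, at rank 8 instead of rank 5, and Rock1 stood before Rock2. Ppp1r12a, Myh9, Rock2 and Rock1 lay between 46.8 and 59.1 FPKM in wt/fl cells, and without sample values it cannot be said which of these neighbours differ.

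Among genes of similar abundance, Myh9 lay outside the central 95% of log2 ratios and the other compared genes of the motor lay inside. All 8 had a mean of 20 FPKM or more. Of the 3764 genes this abundant, 1.12% were lower past the fold and 1.54% were past it in either direction, and 6 had a more negative log2 ratio than Myh9, which were Beta-s, S100a8, S100a9, Hsph1, Cxcr4 and Apobec3. The central 95% of these genes lay between log2 ratios of −0.31 and 0.30. The other 7 compared motor genes lay between −0.27 and 0.22, with a median of 0.02 beside a median of 0.00258 over all compared genes, and 5 of them were on the higher side and 2 on the lower. Of the 8 compared genes 1, Myh9, was past the fold, beside 3.45% of all compared genes in either direction.

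**Figure D4:**
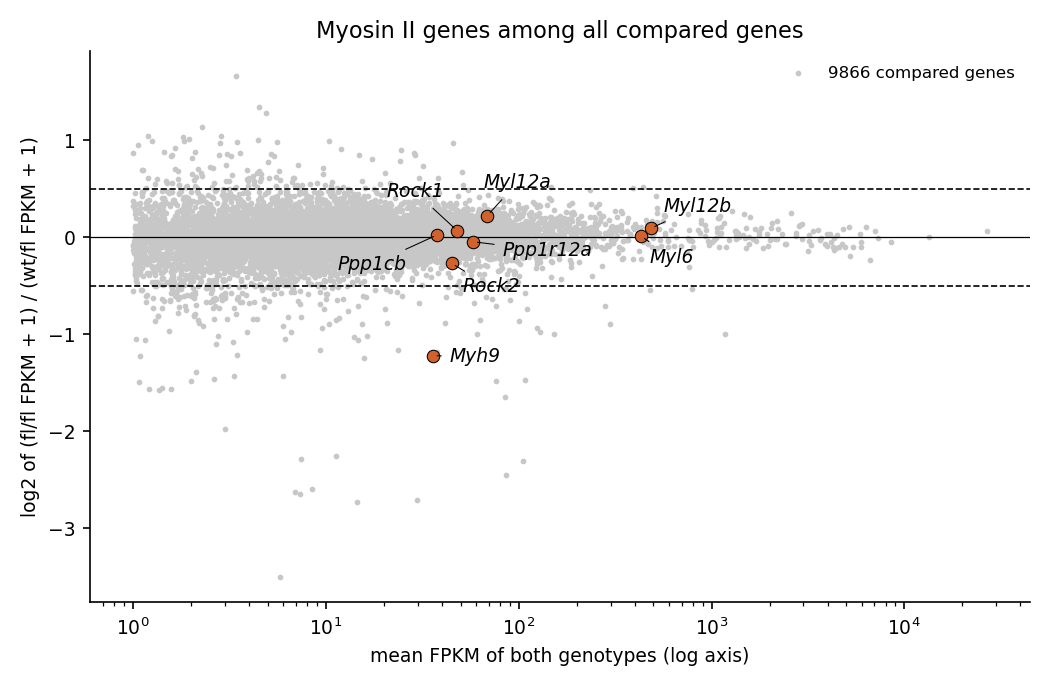
Log2 ratio of fl/fl over wt/fl, with 1 added to each FPKM, against the mean FPKM on a log axis for 9866 compared genes (grey), with the 8 compared motor genes in orange. Myh9 lies at −1.22, below the dashed line at −0.5, and the other 7 genes lie between −0.27 and 0.22.

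The genes with the level and ratio most like those of Myh9 over the pooled genotypes were Wfdc17, Stip1, Cbx7, Gprasp1 and Ahsa2, by distance in the plane of log2 mean level and log2 ratio. Wfdc17 came closest, with 52.6 FPKM in wt/fl against 22.5 FPKM in fl/fl cells and a distance of 0.07. The other 4 were farther away, at distances of 0.40 to 0.65. Stip1, an HSP90 co-chaperone gene, was at 54.3 FPKM in wt/fl against 29.0 FPKM in fl/fl cells.

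The wider pathway was examined through 60 further genes in 6 lists by role. All 60 were found among the measured genes, and 27 had a mean of at least 1 FPKM. Of these 27, 0 were past the fold in either direction, beside 3.45% of all compared genes. At that share a count of 0 among 27 genes is not particular to the pathway. The log2 ratios of the 27 genes reached from −0.35 for S100a4 to 0.35 for Myl4, with a median of 0.01. On the higher side were 14, and 13 on the lower.

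Of the 9 further light chains, most were not expressed. Myl9, the regulatory light chain of smooth muscle, was at 0.0781 FPKM in wt/fl against 0.0749 FPKM in fl/fl cells. Myl4, an essential light chain known from atrial and embryonic muscle, was at 14.8 FPKM in wt/fl against 19.1 FPKM in fl/fl cells. Mylpf, a light chain of fast skeletal muscle, was at 5.71 FPKM in wt/fl against 5.46 FPKM in fl/fl cells. These muscle light chains thus had mRNA in cells in which no muscle heavy chain reached 1 FPKM.

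The other kinases of the regulatory light chain were mostly low as well. Mylk, the classical myosin light chain kinase, was at 0.00732 FPKM in wt/fl against 0.0189 FPKM in fl/fl cells, and only Pak2 and Dapk3 of 13 genes reached a mean of 1 FPKM. Pak2, a p21-activated kinase, was at 53.5 FPKM in wt/fl against 49.5 FPKM in fl/fl cells, in the range of the ROCK kinases. Dapk3, or ZIP kinase, was at 8.71 FPKM in wt/fl against 10.7 FPKM in fl/fl cells, a log2 ratio of 0.27.

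On the phosphatase side 6 of 9 further genes were compared, with log2 ratios between −0.19 and 0.13. Ppp1ca was at 186 FPKM in wt/fl against 185 FPKM in fl/fl cells, and Ppp1cc at 125 and 132 FPKM, both catalytic subunits of PP1.

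Genes for the folding, assembly and filament partners of the heavy chain had a median log2 ratio of −0.06 over 9 compared genes. Lsp1, an actin-binding protein of leukocytes, was at 210 FPKM in wt/fl against 222 FPKM in fl/fl cells. Csnk2b, the regulatory subunit of casein kinase 2, was at 77.7 FPKM in wt/fl against 74.4 FPKM in fl/fl cells. The 8 genes of the SRF and MRTF pathway, which controls many cytoskeletal genes, had a median of 0.10, with 6 on the higher side. Actb was at 2800 FPKM in wt/fl against 3074 FPKM in fl/fl cells, and Actg1 at 529 and 615 FPKM, both encoding actins of non-muscle cells.

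**Figure D5:**
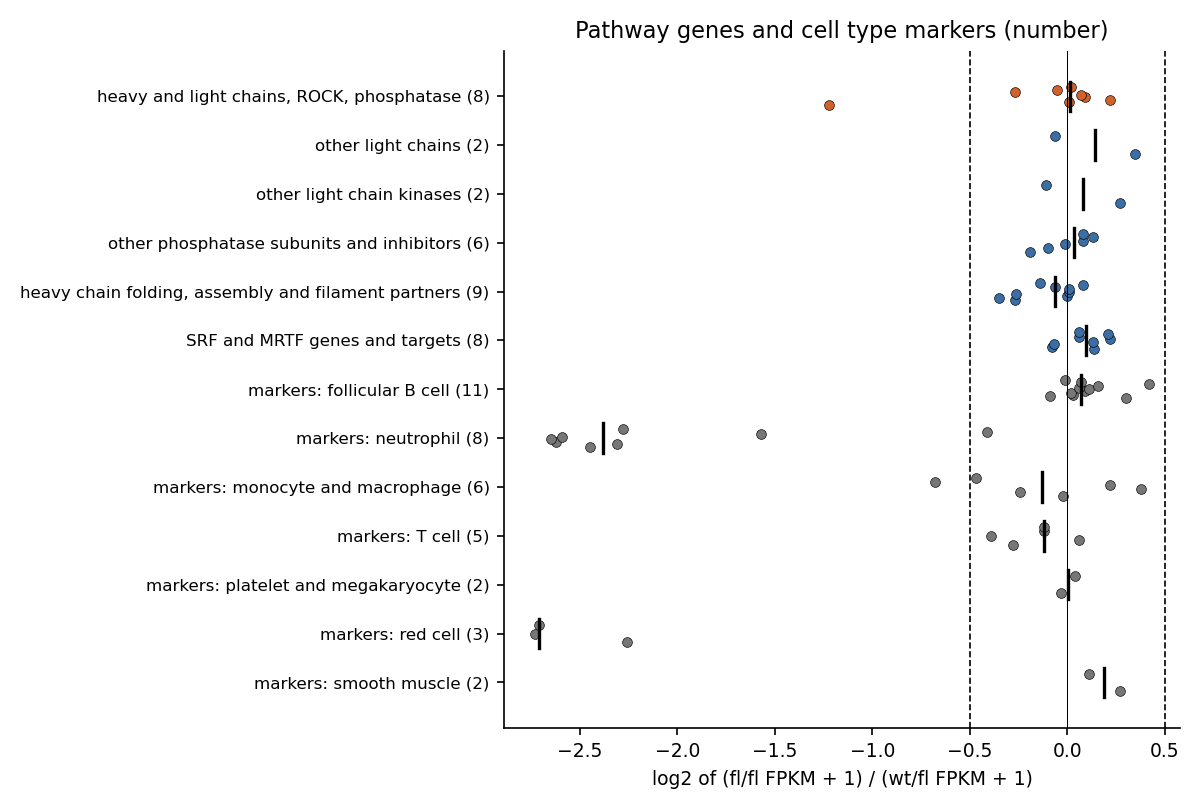
Log2 ratio of fl/fl over wt/fl (1 added to each FPKM) for every compared gene of the motor (orange), of the pathway lists (blue) and of the marker lists (grey), with the number of genes in brackets and the median as a black bar. No pathway gene lies beyond the dashed lines at −0.5 and 0.5, beside 3.45% of all compared genes. Myh9 and 7 of 8 compared neutrophil markers lie below −0.5, beside 2.18% of all compared genes.

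The markers of the labelled cell type were present in both genotypes, and neutrophil and red cell markers were lower in fl/fl cells, as Myh9 was. All 11 follicular B cell markers were expressed, with Cd79b and Cd79a, the signalling subunits of the B cell receptor, as the most abundant. Of these 11, 0 were past the fold (median log2 ratio 0.07), beside 3.45% of all compared genes. At that share a count of 0 among 11 genes is not particular to the markers. Fcer2a, whose promoter drives Cre, had the highest ratio of this list, with 439 FPKM in wt/fl against 588 FPKM in fl/fl cells. Its log2 ratio was 0.42, and 97.9% of the compared genes had a lower one. All 12 neutrophil markers were lower in fl/fl cells, and their summed level was 381 FPKM in wt/fl against 68.4 FPKM in fl/fl cells. S100a8 (145 against 25.8 FPKM) and S100a9 (175 against 34.5 FPKM) made up most of both sums. Of the 8 compared, 7 were lower past the fold, beside 2.18% of all compared genes. Csf3r, at a log2 ratio of −0.41, was not. Elane and Mpo, which define early granulocytes, were listed at 0 in fl/fl cells and at 0.119 and 0.0916 FPKM in wt/fl cells. Both were below 1 FPKM in each genotype, too low to be compared. Of the 26 genes with a lower ratio than Myh9, 7 were on the neutrophil list and 3 on the red cell list. The part of neutrophils and red cells in the Myh9 values was not tested.

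Of 7 red cell marker genes, 4 globin genes are held in 2 joint entries, which left 5 names. All 5 were lower in fl/fl cells, and 3 of 3 compared were lower past the fold, beside 2.18% of all compared genes. The 5 names summed to 99.0 FPKM in wt/fl against 13.7 FPKM in fl/fl cells, with Beta-s, a beta globin, at 52.0 against 7.08 FPKM.

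The summed levels of markers of other cell types differed less between the genotypes. The 7 platelet and megakaryocyte markers summed to 18.9 FPKM in wt/fl against 20.5 FPKM in fl/fl cells, and the 8 T cell markers to 13.8 and 11.6 FPKM. Itgb3, at 16.4 against 17.0 FPKM, made up most of the platelet sum. The remaining platelet markers were low and went both ways, with Pf4 at 0.168 against 0.88 FPKM and Gp9 at 0.105 against 0 FPKM. Of the 7, 3 were lower in fl/fl cells. The 10 monocyte and macrophage markers summed to 89.4 FPKM in wt/fl against 60.1 FPKM in fl/fl cells. Lyz2, which neutrophils also express, made up most of both sums, at 72.6 FPKM in wt/fl against 44.9 FPKM in fl/fl cells. It was the 1 gene of 6 compared that was past the fold, beside 3.45% of all compared genes. The log2 ratio was negative for 4 of these 6 and positive for 2, C1qb (0.38) and C1qc (0.22). The 5 smooth muscle markers summed to 3.74 FPKM in wt/fl against 4.54 FPKM in fl/fl cells.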

How the data were processed

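Total RNA of sorted follicular B cells was amplified (Ovation RNA-Seq V2) and sequenced from 3 samples per genotype. Per the labels, the authors used Bowtie, TopHat and Cufflinks. Versions and options are not given in the sources used here. The deposited table, in the layout of Cuffdiff, holds 25017 entries (groups of transcripts with the same coding sequence) with 1 FPKM value per genotype, pooled by the authors over 3 samples. Its columns of fold changes, test statistics, p-values and q-values are the authors' own comparison and were not used. Besides the FPKM values, the identifier, gene name, position and status word of each entry were used. The labels name mm10 and GRCm38, but 12.7% of 19140 genes overlapped their GRCm38 position, and the Myh9 position is that of mm9, so gene positions are given on mm9 and were not converted. Depth per sample is unknown. Low FPKM times transcript length fell within 0.1 of a whole number for 28.1% (wt/fl) and 33.7% (fl/fl) of values at the best step, against 20% for evenly spread values, so whole reads were not recovered.

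FPKM was summed per gene name, and 44 entries with a date in place of a symbol were left out of the genes compared. A pseudocount of 1, a minimum mean of 1 FPKM and a log2 ratio of 0.5 were used. The members and lists were chosen with earlier results of these data known. Named were all 10 members, the 5 genes nearest to Myh9, and of each pathway list its 2 most abundant genes and any gene past the fold. Naming the 2 most abundant genes was planned for the marker lists too, but was not done for every one. Other genes (Myl9, Mylk, S100a4, Fcer2a, the neighbours on chromosome 15, the genes below Myh9 and single markers) were named after their values were seen. The result of 1 further pathway list is not reported here, and its genes are left out of the pathway counts. The listed Adgre1 was found under its synonym Emr1. The adult globin genes are held under joint names (Hbb-b1 with Hbb-b2, Hba-a1 with Hba-a2), each read as 1 name. Sequences came from GENCODE M21 transcripts (GRCm38), 1 principal transcript per gene without readthrough. They were compared in stretches of 50 bases with Biopython 1.88, pandas 2.3.3 and Python 3.11.15. Both strands were searched, except between Myl12a and Myl12b, where only the mRNA strand was. The counting was run on simulated data without noise and with changes well past the fold. This checks the arithmetic and does not show how noise would affect the counts. Alternatives were other pseudocounts, filters, folds, scalings and the highest entry of each gene.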

Additional observations from a re-analysis of the deposited data

How the results depend on the processing

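The log2 ratio of Myh9 lay between −1.26 and −1.23 with pseudocounts of 0.1 and 0.5 and under upper quartile and median ratio scaling, beside −1.22 as reported. Of the motor genes 1, Myh9, was past the fold in all 10 alternatives run. These included a log2 ratio of at least 1 or 0.3, a mean of at least 5 FPKM and no filter. A mean of at least 20 FPKM was chosen after seeing the data. The filters of 5 and 20 FPKM could not change this count, because all 8 compared motor genes passed both. The count of pathway genes past the fold was 0 in every alternative but the log2 ratio of at least 0.3, at which it was 2 (1 higher, 1 lower), because the limit itself was lower. Of 49 log2 ratios of members, 48 moved by no more than 0.11, the median absolute deviation over all compared genes. Many of them had little or no room to move. For a member with 1 entry the highest entry is the same as the sum, so that alternative could not change its ratio. The 1 ratio that moved more was that of Myh14, at −0.22 with a pseudocount of 0.1. Scaling acts on all genes alike and shifted the median gene by only −0.0057 and −0.0025, so it could barely move a member. No paired analysis was possible because the only values are pooled over the samples of a genotype, and for the same reason no replicate could be left out. The missing sample values, the unknown depth and the near-identical copies of Myl6, Myl12a and Myl12b limit these results.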

Other observations

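Genes near Myh9 on chromosome 15 were looked at after the values of Apobec3 and Cbx7 had been seen. Of 19 compared genes within 1 Mb of Myh9, 0 were past the fold. Within 5 Mb, 5 of 140 compared genes were lower and 1 was higher past the fold, or 4.29% in either direction. Of all 384 compared genes of the chromosome without Myh9, these 140 included, 10 were lower and 7 higher, or 4.43%. Of all compared genes 2.18% were lower and 1.27% higher, or 3.45%. Apobec3, which encodes a cytidine deaminase that restricts retroviruses, lies 2.05 Mb from Myh9 (chromosome 15, 79719961 to 79738859, mm9) and was at 160 FPKM in wt/fl against 56.9 FPKM in fl/fl cells, a log2 ratio of −1.47. Its neighbour Cbx7, a Polycomb gene at 2.07 Mb, was at 37.6 FPKM in wt/fl against 23.1 FPKM in fl/fl cells, a log2 ratio of −0.68. Adck5, at 1.15 Mb on the other side, was at 2.07 FPKM in wt/fl against 0.0849 FPKM in fl/fl cells, a log2 ratio of −1.5. The co-chaperone gene St13, at 3.52 Mb, was at 110 FPKM in wt/fl against 69.9 FPKM in fl/fl cells. The 1 gene higher past the fold was 2010109I03Rik, at 2.88 Mb, with 3.44 FPKM in wt/fl against 5.64 FPKM in fl/fl cells.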
